A study of Mus musculus with 27 samples.

Results

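The genes described here encode the induced part of the immunoproteasome and the machinery that carries its peptides onto MHC class I. The set has 10 genes, named by symbol: the catalytic subunits Psmb8, Psmb9 and Psmb10, the activator subunits Psme1 and Psme2, the transporter genes Tap1 and Tap2, the loading factors Tapbp and Tapbpl, and the regulator Nlrc5. All 10 are among the 41388 genes of the count table and among the 12661 that were abundant enough to be tested.

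Dural macrophages were sorted from the dura mater, the outer membrane around the brain, of B6 mice aged 16 to 19 weeks, and their RNA was sequenced in bulk in 27 libraries. Every animal carried Rag1 ko, which leaves a mouse without T and B cells of its own. No T cells were given to the first group, which the labels call steady state (6 libraries, 4 female and 2 male). The other 6 groups were taken 6.5 weeks after the mice received donor T cells. These were total B6 T cells (5 libraries, 4 female and 1 male), Tbet ko T cells (2 female), IFNg ko T cells (2 female), IL6Ra ko/IL21R ko T cells (7, of which 3 were female and 4 male), IL-17AF ko T cells (2 female) and IL22 ko T cells (3, of which 2 were female and 1 male). The deletions were in the donor T cells, so the sequenced macrophages are not the cells that lacked the gene. Nothing in the labels says that a group's libraries are separate animals: by its column names the Tbet ko pair may be 1 animal, and some libraries may be pools. The p-values therefore measure only the spread between these libraries.

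The proteasome is a barrel-shaped protease that cuts cytosolic proteins into peptides. Under interferon-gamma its constitutive catalytic subunits (Psmb5, Psmb6 and Psmb7) are replaced in newly built particles by Psmb8, Psmb9 and Psmb10, and the PA28 cap formed by Psme1 and Psme2 binds the ends of the barrel. The peptides are pumped into the endoplasmic reticulum by the Tap1-Tap2 transporter, where tapasin (Tapbp) and its relative TAPBPR (Tapbpl) help class I molecules to select them, and Nlrc5 is a transactivator of class I genes that works through the X1 and Y box elements of their promoters.

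Psmb9, Tap1, Psmb8 and Tap2 lie side by side in the MHC on chromosome 17 (GRCm38, GENCODE M21 positions). These 4 genes, Psmb9 (34181987 to 34187764, - strand), Tap1 (34187553 to 34197225, + strand), Psmb8 (34197721 to 34201454, + strand) and Tap2 (34203527 to 34216321, + strand) together span 34335 bases. Tapbp lies in the same region (33915899 to 33929292, + strand). Psmb10 (105935735 to 105938444, - strand) and Nlrc5 (94434356 to 94527272, + strand) are on chromosome 8. Psme1 (55578123 to 55581529, + strand) and Psme2 (55587441 to 55591113, - strand) are neighbours on chromosome 14, and Tapbpl is on chromosome 6 (125223933 to 125231860, - strand). Psmb9 and Tap1 are transcribed away from each other and their exons share 212 bases, and Tapbp shares 904 exon bases with the antisense gene Gm19412. Psmb8 shares 498 exon bases with the antisense gene Gm20496. Tap2 shares 165 with Gm20496 and 533 with Gm15821, also on the opposite strand. The libraries were unstranded, so reads from such shared stretches cannot be assigned to a strand.

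RefSeq (GRCm38.p6) gives windows from 250 bases before to 50 after the transcript start for 7 of the 10 members. The 3 below are examples, and each holds 1 match to the motifs given next. The windows of Psmb10 and Psme2, which are not shown, hold none. The Tap1 window and the Psmb9 window overlap by 275 bases on opposite strands (34187306 to 34187580), so the first sequence also holds most of the Psmb9 window. RefSeq and GENCODE place the starts of some genes differently. By the GENCODE positions above, the Tap1 window lies inside Psmb9, and the Psmb8 and Psme1 windows lie inside their own genes. Both strands were searched for TTCNNNGAA (the gamma-activated site), the interferon-stimulated response element (GAAA, any 2 bases, GAAA) and CCAAT (the site of the Nfya, Nfyb and Nfyc complex). Capitals mark the matches, and none of them overlapped another.
Tap1, chr17:34187306-34187605, + strand: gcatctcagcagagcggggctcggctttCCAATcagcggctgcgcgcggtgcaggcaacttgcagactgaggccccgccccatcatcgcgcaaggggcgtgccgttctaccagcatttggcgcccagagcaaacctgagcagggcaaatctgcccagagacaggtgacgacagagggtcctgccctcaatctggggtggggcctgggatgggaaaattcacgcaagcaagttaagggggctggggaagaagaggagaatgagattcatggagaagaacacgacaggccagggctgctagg
Psmb8, chr17:34197945-34198244, + strand: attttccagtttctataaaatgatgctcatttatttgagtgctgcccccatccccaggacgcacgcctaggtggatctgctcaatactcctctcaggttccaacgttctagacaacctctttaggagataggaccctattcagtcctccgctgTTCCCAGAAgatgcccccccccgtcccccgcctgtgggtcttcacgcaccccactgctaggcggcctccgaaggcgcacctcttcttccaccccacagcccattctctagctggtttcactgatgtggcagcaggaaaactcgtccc
Psme1, chr14:55578244-55578543, + strand: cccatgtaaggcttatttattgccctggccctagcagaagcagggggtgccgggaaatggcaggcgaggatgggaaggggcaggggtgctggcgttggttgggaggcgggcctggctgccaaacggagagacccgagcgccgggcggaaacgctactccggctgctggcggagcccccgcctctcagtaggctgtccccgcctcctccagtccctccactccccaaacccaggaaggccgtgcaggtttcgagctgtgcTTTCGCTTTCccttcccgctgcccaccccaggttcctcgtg

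The Tap1 window holds a CCAAT match that starts at -222 from the transcript start of Tap1 and, read from the other side, at -8 of Psmb9. The Psmb8 window holds TTCCCAGAA at -97, and the Psme1 window holds the response element on the reverse strand at 10. All these positions count from the RefSeq starts, and the Psmb8 and Psme1 matches lie inside the genes as GENCODE places them. Tapbp had CCAAT matches at -248 and -165, and the windows of Psmb10 and Psme2 held none of the 3 motifs. Among 32851 RefSeq promoter windows of the same length 8.298% held TTCNNNGAA, 3.443% the response element and 37.408% CCAAT. A match is a run of letters, not a measured binding site.

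All 10 members differed among the 7 groups (edgeR quasi-likelihood F test with Benjamini-Hochberg adjustment), as did 38.4% of all genes tested. The libraries held from 6902602 to 19966749 counts. By their ribosomal protein transcripts they were divided into 3 sets, called A, B and C here. The number of sets was given to the clustering, not found by it. The sets had 2.63% to 3.22%, 1.08% to 1.52% and 0.702% to 0.835% of counts in such transcripts. In set A were F1, F2, M1 and M2 of the mice without T cells and F1, F2 and M1 of those with total T cells (F for female, M for male). F3 and F4 of both groups, 6 IL6Ra ko/IL21R ko libraries and the 3 IL22 ko libraries made up set B. Set C holds the Tbet ko, IFNg ko and IL-17AF ko groups and 1 IL6Ra ko/IL21R ko library (M4). What the sets stand for is not stated in the labels. The macrophage identity of the cells was checked with Adgre1, Csf1r, Cd68, Fcgr1, Mertk, Lyz2, Itgam and Aif1, which were all present in each group, with summed levels from 14542 to 23261 CPM (counts scaled to library size).

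**Figure D1:**
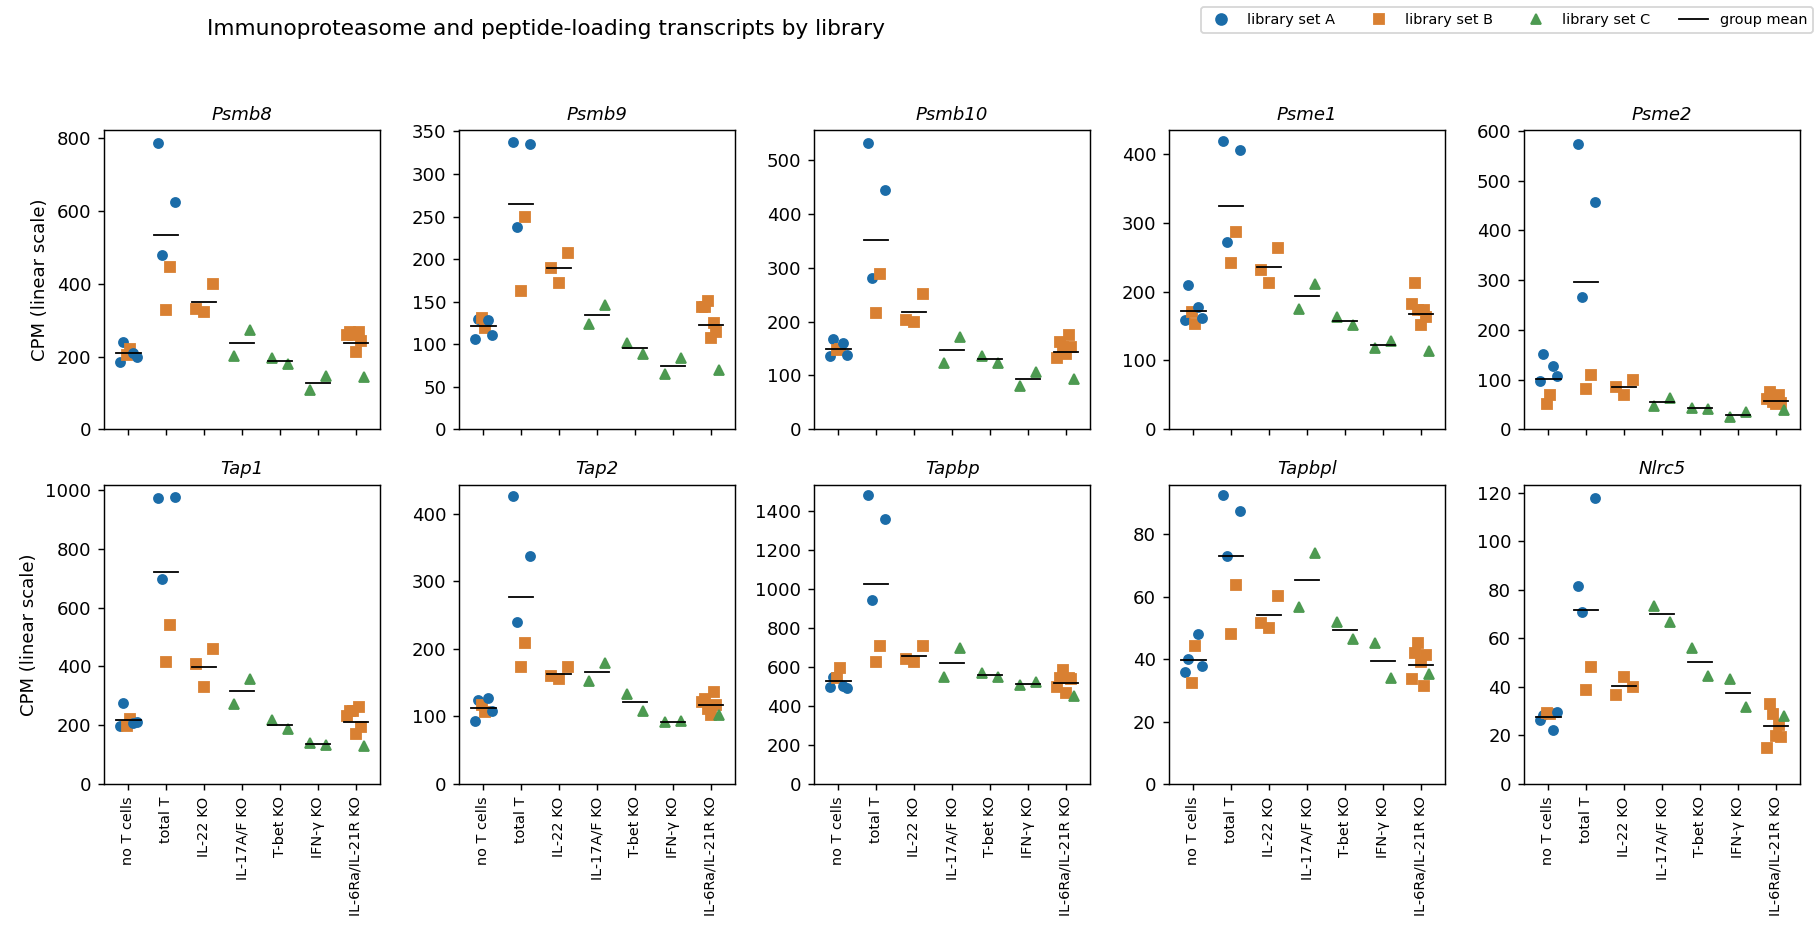
CPM of the 10 genes in each library, on a linear axis, by T-cell group. Each point is 1 library, coloured by its library set, and the short line is the group mean; total T cells have the highest mean in each panel, and the lowest of its 5 libraries is from set B.

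The whole set was higher with total T cells. Relative to mice without T cells all 10 members rose, where 11.7% of all genes did, and the members' median log2 fold change was 1.28, against -0.02 over all genes. Over all libraries the estimates ran from 0.89 for Tapbpl to 1.72 for Tap1. The CPM ranges of 8 members did not overlap between the groups, as was so for 6.49% of all genes in this direction.

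Tap1 is the transporter subunit whose RefSeq promoter window overlaps that of Psmb9. With total T cells it had 973, 698, 415 and 540 CPM in the female libraries and 975 CPM in the male library. Without T cells its lowest, median and highest values were 196, 209 and 276 CPM. Each of the 5 libraries with T cells lay above the 6 without, with the smallest distance in F3 and F4, which belong to set B. The difference was 1.72 ± 0.20 on the log2 scale (fold change ± standard error, 95% interval 1.32 to 2.13, adjusted p (q) = 1.54e-05). Its partner Tap2 had 426, 241, 172, 209 and 338 CPM with total T cells and 93.1, 112 and 127 CPM (lowest, median, highest) without. These ranges did not overlap either, and Tap2 rose by 1.31 ± 0.16 (q = 1.97e-05).

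The 3 induced catalytic subunits rose by similar amounts. Psmb8, which carries the chymotrypsin-like activity in the immunoproteasome, had 787, 480, 328, 447 and 625 CPM with total T cells and 184, 206 and 241 CPM (lowest, median, highest) without. It rose by 1.34 ± 0.18 (q = 3.11e-05). Psmb9, the subunit in the place of Psmb6, had 338, 237, 163, 250 and 335 CPM with total T cells and 106, 124 and 131 CPM without, and rose by 1.12 ± 0.17 (q = 9.33e-05). Neither gene overlapped between the groups, and in both the F3 library with T cells was the lowest of its group. Psmb10, the subunit in the place of Psmb7, had 532, 280, 216, 288 and 443 CPM with total T cells and 136, 148 and 167 CPM without, and rose by 1.24 ± 0.18 (q = 6.52e-05).

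The PA28 genes differed from each other in their spread. Psme1 had 419, 273, 241, 287 and 405 CPM with total T cells against 153, 166 and 209 CPM (lowest, median, highest) without, and rose by 0.92 ± 0.15 (q = 0.000132). Psme2 had 574, 266, 81.1, 109 and 456 CPM with total T cells against 50.02, 103 and 152 CPM without, and rose by 1.58 ± 0.35 (q = 0.00257). The Psme2 ranges overlapped between the groups, but not within a library set. In set A the libraries without T cells had 97.5 to 152 CPM and those with total T cells 266 to 574 CPM, and in set B the values were 50.02 and 68.3 against 81.1 and 109 CPM. Psme2 has a near-identical copy, Psme2b, with 19 to 197 counts a library where Psme2 had 177 to 8500. With the counts of the 2 genes summed, the Psme2 difference was 1.57.

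Of the loading factors, tapasin was the more abundant. Tapbp had 1481, 945, 626, 705 and 1360 CPM with total T cells and 491, 522 and 592 CPM (lowest, median, highest) without, and rose by 0.96 ± 0.16 (q = 0.000189). Tapbpl had 92.8, 73.0, 48.0, 63.8 and 87.4 CPM with total T cells against 32.3, 39.0 and 48.2 CPM without, and rose by 0.89 ± 0.15 (q = 0.000179). The lowest Tapbpl library with T cells, F3, lay just under the highest one without, so these ranges overlapped. Nlrc5, the regulator, had 81.5, 70.8, 38.9, 48.3 and 118 CPM with total T cells and 22.2, 28.6 and 29.4 CPM without. Its ranges did not overlap, and it rose by 1.38 ± 0.22 (q = 0.000109).

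Per kilobase of exon, Tapbp was the most abundant member without T cells, at 146 ± 10.8 CPM per kilobase (SD, n = 6). Psmb10 (87.7), Psme1 (77.8), Psmb8 (62.1) and Psme2 (57.0) followed, then Tap1 (39.8), Psmb9 (33.1), Tap2 (29.7) and Tapbpl (16.9). Nlrc5 was the least abundant at 3.23 ± 0.33 CPM per kilobase. With total T cells Tapbp and Nlrc5 kept these places, at 282 ± 106 and 8.42 ± 3.66 CPM per kilobase (SD, n = 5). Between them came Psmb10 (206), Psme2 (169 ± 122), Psmb8 (158), Psme1 (147) and Tap1 (131 ± 46.1). Tap2 (73.3), Psmb9 (72.3) and Tapbpl (31.0 CPM per kilobase) followed.

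The rise was present in both library sets that hold the 2 groups, at different sizes. In set A alone (4 libraries against 3) all 10 members were called higher, with 9.68% of all genes. In set B alone (2 against 2) 4 were, with 0.387% of all genes: Psmb8 (0.86 ± 0.16, q = 0.032), Psmb10 (0.76 ± 0.16, q = 0.0431), Tap1 (1.18 ± 0.21, q = 0.0286) and Tap2 (0.77 ± 0.15, q = 0.032). Tapbp was at 0.22 ± 0.13 in set B (q = 0.45) and at 1.30 ± 0.16 in set A. Nlrc5 was at 0.57 in set B and 1.76 in set A, and Psme2 at 0.68 ± 0.23 (q = 0.164) and 1.82 ± 0.26. The point estimate was smaller in set B for all 10 members, with a median difference of the effects of -0.76 on the log2 scale. No member passed the edgeR test of that difference (0% of all genes), while 8 members had an unadjusted p under 0.05. Counts at an unadjusted p, here and below, are not calls, and the share of all genes at that threshold is not given. Tapbp (-1.08 ± 0.24, q = 0.378) and Nlrc5 (-1.19 ± 0.30, q = 0.394) had the smallest p-values.

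**Figure D2:**
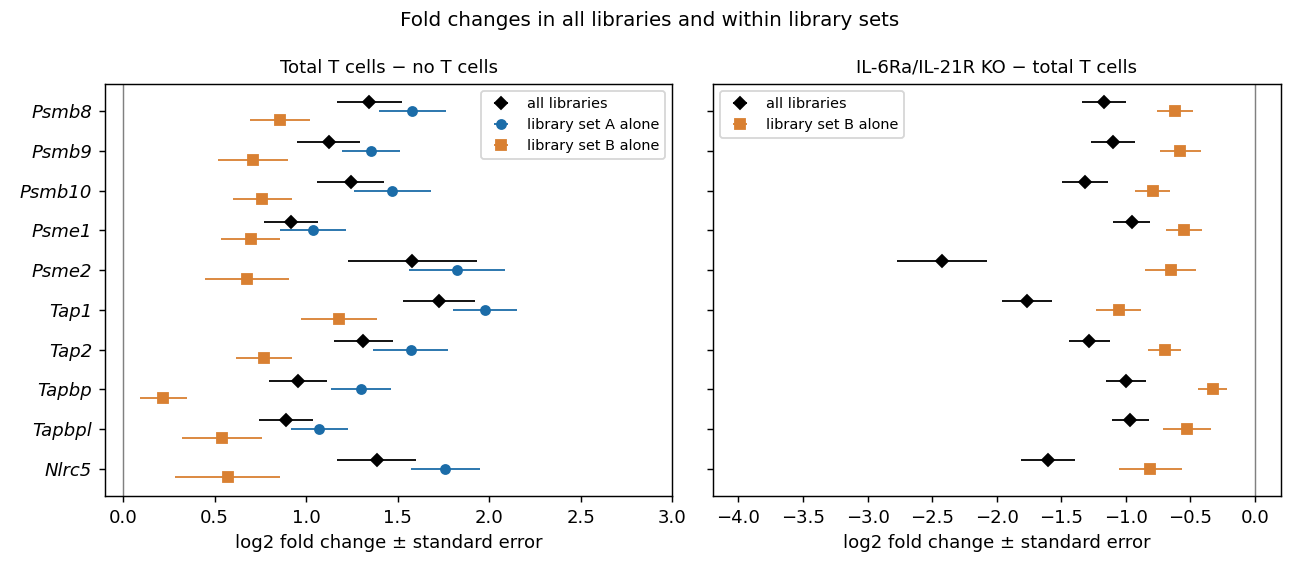
Log2 fold change ± standard error of each gene, in all libraries and within library sets, for total T cells against no T cells (left) and IL6Ra ko/IL21R ko against total T cells (right). In both panels the set B values lie closer to 0 than the values of all libraries, with Tapbp at 0.22 on the left.

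Markers of other cells also differed between these groups. The summed level of 5 monocyte markers (Ly6c2, Ccr2, Plac8, Chil3 and Cd177) was 1557 to 7061 CPM with total T cells and 639 to 1109.9 CPM without. That of 7 border macrophage markers (Mrc1, Lyve1, Cd163, Pf4, Cbr2, F13a1 and Folr2) was 1541 to 5369 against 6019 to 9008 CPM. Fibroblast markers (Col1a1, Col1a2, Col3a1, Dcn, Lum and Pdgfra) summed to 244 to 400 CPM with total T cells and 428 to 1461 CPM without. Neutrophil markers (S100a8, S100a9, Ly6g, Retnlg, Camp and Ngp) summed to 10.1 to 173 CPM (median 47.3) with total T cells. Without T cells they summed to 0.35 to 1501 CPM (median 64.7). In bulk RNA, more cells of a type and more RNA per cell cannot be told apart, and the part of these shifts in the rise of the 10 genes was not tested. Of 8 T-cell markers, Cd8a averaged 1.96 CPM with total T cells and 0.06 CPM without, and Lck 1.03 and 0.31 CPM. Cd3d, Cd3e, Cd3g, Trac and Cd247 averaged from 0.01 to 0.95 CPM with total T cells, and Trac and Cd3g were at 0 without. Cd4 carried nearly all of that list's sum, and averaged 80.9 CPM with total T cells and 120 CPM without. All 5 NK-cell markers together reached 6.86 CPM at most with total T cells and 5.75 CPM without.

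The constitutive catalytic subunits moved less than the induced ones. Psmb5 rose by 0.59 ± 0.14, Psmb7 by 0.46 ± 0.14 and Psmb6 by 0.40 ± 0.10 with total T cells. Within a library, the log2 ratio of the counts of Psmb8 to Psmb5 was 3.79, 3.77, 3.39, 3.81 and 3.73 with total T cells, and from 2.62 to 3.23 without. No library of one group reached into the range of the other. The mean difference was 0.76, a ratio 1.69-fold higher (exact permutation test over 462 arrangements, two-sided, adjusted p = 0.00909 over 9 tests). For Psmb9 to Psmb6 the difference was 0.69 (exact permutation test, adjusted p = 0.00909), with 0.63 to 1.34 against 0.23 to 0.52. For Psmb10 to Psmb7 it was 0.68 (exact permutation test, adjusted p = 0.0130), and there the ranges overlapped, with 1.06 to 1.75 against 0.16 to 1.15. Each of the 3 ratios was higher with total T cells, so the induced and the constitutive member of a pair changed unequally. Psmb7 shares 405 exon bases with Nek6 on the opposite strand, and Psmb5 shares 109 with the microRNA gene Mir686 on the same strand. Reads from these stretches cannot be assigned to a single gene.

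**Figure D3:**
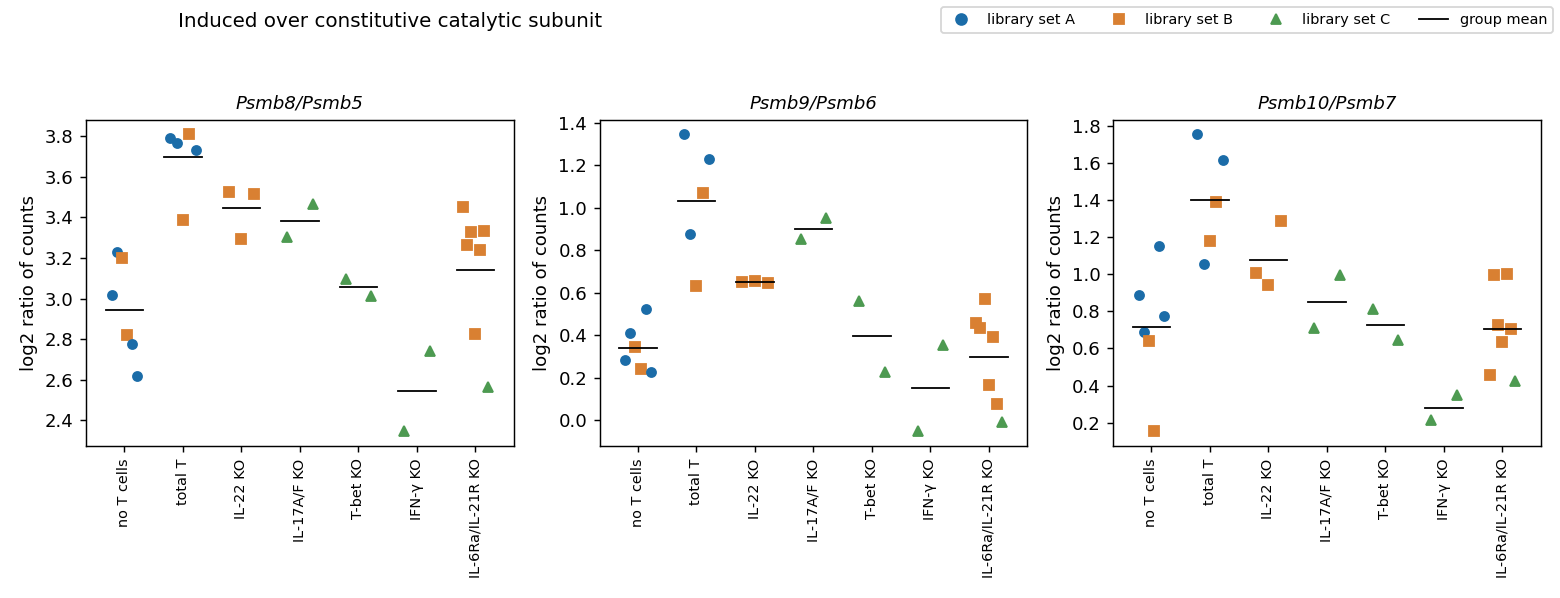
Log2 ratio of the counts of each induced catalytic subunit to the constitutive subunit it replaces, by T-cell group. Points are libraries and lines are group means; with total T cells the Psmb8 to Psmb5 ratio lies from 3.39 to 3.81, above the 2.62 to 3.23 without T cells.

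The rest of the pathway moved in parts, where 11.7% of all genes were called higher. Of 11 other subunits of the 20S barrel 9 rose, with a median of 0.63, among them Psma5 (0.88), Psma4 (0.76) and Psmb4 (0.74). Of 7 other activators and assembly factors 3 rose: the chaperone Psmg4 (0.84), Pomp (0.67), which matures new particles, and the nuclear cap Psme3 (0.40). Of 13 other genes of class I assembly 8 rose and 5 did not pass the test. The heavy chains H2-K1 (0.88 ± 0.14) and H2-D1 (0.60 ± 0.11), B2m (0.64 ± 0.12), which pairs with them, and the trimming peptidase Erap1 (0.75 ± 0.11) were among those that rose. The general chaperones Canx, Pdia3, Pdia6 and Hspa5 were at -0.12, 0.17, 0.31 and 0.19 and did not pass the test.

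Of 17 regulators 4 rose and none fell, where 11.7% of all genes were called higher. They were Jak2 (1.41 ± 0.23), a kinase that carries the interferon-gamma signal, the receptor chain Ifngr2 (0.39 ± 0.13), Irf2 (0.47 ± 0.12) and the class II transactivator Ciita (0.79 ± 0.25). Irf1 was at -0.11 ± 0.23 (q = 0.784). The partners through which Nlrc5 and Ciita act on promoters did not pass the test: Rfx5 was at 0.38, Rfxap at -0.20, Rfxank at -0.23, Nfya at -0.30, Nfyb at -0.18, Nfyc at -0.05 and Creb1 at -0.10.

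**Figure D4:**
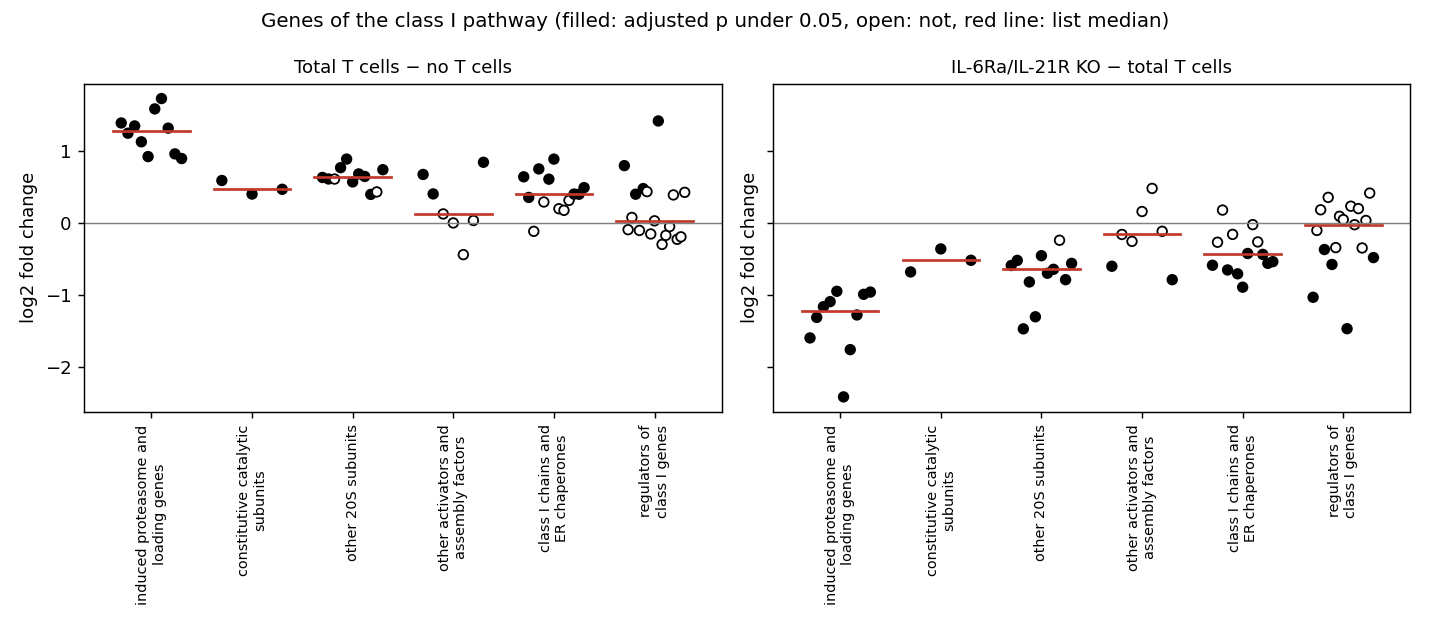
Log2 fold changes of the member genes and of the other genes of the pathway, by list, with filled points for genes that passed the test. With total T cells the members lie between 0.89 and 1.72, above the medians of the other lists.

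Without the IL-6 and IL-21 receptors on the donor T cells the set was lower again. All 10 members were lower than with total T cells, against 15.1% of all genes called lower, with a median of -1.23. The ranges of all 10 members lay apart, as was so for 6.53% of all genes in this direction. Tap1 had 232, 248 and 248 CPM in the female and 170, 262, 192 and 130 CPM in the male libraries, so its highest value, 262, was under the lowest with total T cells, 415. It fell by 1.76 on the log2 scale (standard error 0.19, q = 2.7e-06). Psmb8 had 143, 259 and 268 CPM (lowest, median, highest), Tap2 102, 117 and 137 CPM and Nlrc5 14.6, 24.2 and 32.8 CPM in this group. Each was near or within the range without T cells and below that with total T cells. Psme2 differed by -2.42 ± 0.35 (q = 2.52e-05), Nlrc5 by -1.60 ± 0.21, Psmb10 by -1.32 ± 0.18, Tap2 by -1.28 ± 0.16 and Psmb8 by -1.17 ± 0.17. Psmb9 (-1.10), Tapbp (-0.996), Tapbpl (-0.96) and Psme1 (-0.95) had the smallest differences.

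The lowest library of this group was M4 for Psmb8 (143 CPM), Psmb9 (69.9), Psmb10 (92.6), Psme1 (114), Psme2 (38.01), Tap1 (130) and Tapbp (453 CPM), while Nlrc5 was lowest in F1, Tap2 in M1 and Tapbpl in M2. M4 is the only library of the group in set C. Its fibroblast markers (Col1a1, Col1a2, Col3a1, Dcn, Lum and Pdgfra) summed to 3540 CPM, the highest of the group, whose median was 611 CPM. Their part in the result was not tested. Leaving out any 1 library of these 2 groups left all 10 members called. In set B alone (6 libraries against 2) the differences were smaller, and 6 members were called lower (4.21% of all genes): Psmb8 (-0.62), Psmb9 (-0.58), Psmb10 (-0.79), Psme1 (-0.55), Tap1 (-1.05) and Tap2 (-0.70). Psme2 was at -0.65 ± 0.20 there (q = 0.06), in place of -2.42 in all libraries. Monocyte markers summed to 234 to 993 CPM in this group, below the 1557 to 7061 CPM with total T cells. Border macrophage markers summed to 7171 to 12076 CPM, above the 1541 to 5369 CPM with total T cells. The part of either list was not tested.

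Against mice without T cells no member differed in the IL6Ra ko/IL21R ko group (edgeR), where 1.15% of all genes were called. Psme2 alone had an unadjusted p under 0.05, and DESeq2 called 0. The 95% intervals ran from -0.41 to 0.33 for Tap1, from -0.16 to 0.52 for Psmb8 and from -0.28 to 0.34 for Tap2. Psme2 was at -0.84 ± 0.33 (q = 0.314) with both sets in the group without T cells, and at 0.02 ± 0.20 within set B.

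The induced subunits were lower relative to their constitutive counterparts as well. The log2 ratio of Psmb8 to Psmb5 differed from that with total T cells by -0.56 (exact permutation test over 792 arrangements, adjusted p = 0.00909). That of Psmb9 to Psmb6 differed by -0.73 and that of Psmb10 to Psmb7 by -0.69 (exact permutation test, adjusted p = 0.00909 each). The ranges of the Psmb9 to Psmb6 and Psmb10 to Psmb7 ratios did not overlap between the groups. Those of Psmb8 to Psmb5 did, with 2.56 to 3.45 against 3.39 to 3.81 with total T cells. Of the other genes of the pathway, 3 of 3 constitutive catalytic subunits, 10 of 11 other barrel subunits, 8 of 13 class I assembly genes and 5 of 17 regulators were lower. Of all genes 15.1% were called lower in that comparison. Jak2 was at -1.47 ± 0.23.

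With IL22 ko T cells the mean of 9 members, all but Psme2, lay between that without T cells and that with total T cells. Tap1 had 409, 329 and 459 CPM, above all libraries without T cells and overlapping those with total T cells in the 415 to 459 range. Psmb8 had 331, 322 and 398 CPM, Psmb9 189, 173 and 208 CPM and Psmb10 203, 199 and 250 CPM. None of the 10 members was called against total T cells (edgeR), where 0.0869% of all genes were. All 10 had an unadjusted p under 0.05, a threshold at which the share of all genes is not given. DESeq2 called 6 lower (4.44% of all genes). The differences ran from -0.45 ± 0.18 (Tapbpl) to -1.83 ± 0.46 (Psme2), with -0.85 ± 0.24 for Tap1 (95% interval -1.35 to -0.35, q = 0.0702). Without the library F3 of total T cells all 10 were called lower (3.8% of all genes), and without F4 5 were (2.62%). Both are the set B libraries of that group. Within set B, where these 2 libraries stood against the 3 of IL22 ko, Psme2 was at -0.17 ± 0.21 (q = 0.943), Tap1 at -0.24 ± 0.19 (q = 0.891) and Tapbp at -0.02 ± 0.12 (q = 0.992), with no member called (0% of all genes).

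Against mice without T cells the ranges of 9 members, all but Psme2, lay above, as was so for 4.02% of all genes. Monocyte markers summed to 860.1 to 1194 CPM with IL22 ko T cells, and their part was not tested. No member was called (edgeR, 0.0079% of all genes; 8 members with an unadjusted p under 0.05; 1 by DESeq2). Tap1 was at 0.87 ± 0.22 (95% interval 0.42 to 1.33, q = 0.141) and Psmb8 at 0.74 ± 0.20 (q = 0.146). With the library set as a term 3 members were called higher (0.521% of all genes): Psmb8 (0.95, q = 0.0251), Psmb9 (0.81, q = 0.0466) and Tap1 (1.18, q = 0.0083). The direct contrast of IL22 ko with IL6Ra ko/IL21R ko T cells called 0 members in all libraries (0.0079% of all genes; 8 members with an unadjusted p under 0.05; 1 by DESeq2). Within set B, with 3 libraries against 6, it called 3 higher (1.11% of all genes): Tap1 (0.81 ± 0.14, q = 0.0134), Psmb10 (0.52 ± 0.11, q = 0.0339) and Tap2 (0.46 ± 0.11, q = 0.0474). The log2 ratios of Psmb8 to Psmb5, Psmb9 to Psmb6 and Psmb10 to Psmb7 differed from those with total T cells by -0.25, -0.38 and -0.32 with IL22 ko T cells (exact permutation test over 56 arrangements, adjusted p = 0.138, 0.143 and 0.143).

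**Figure D5:**
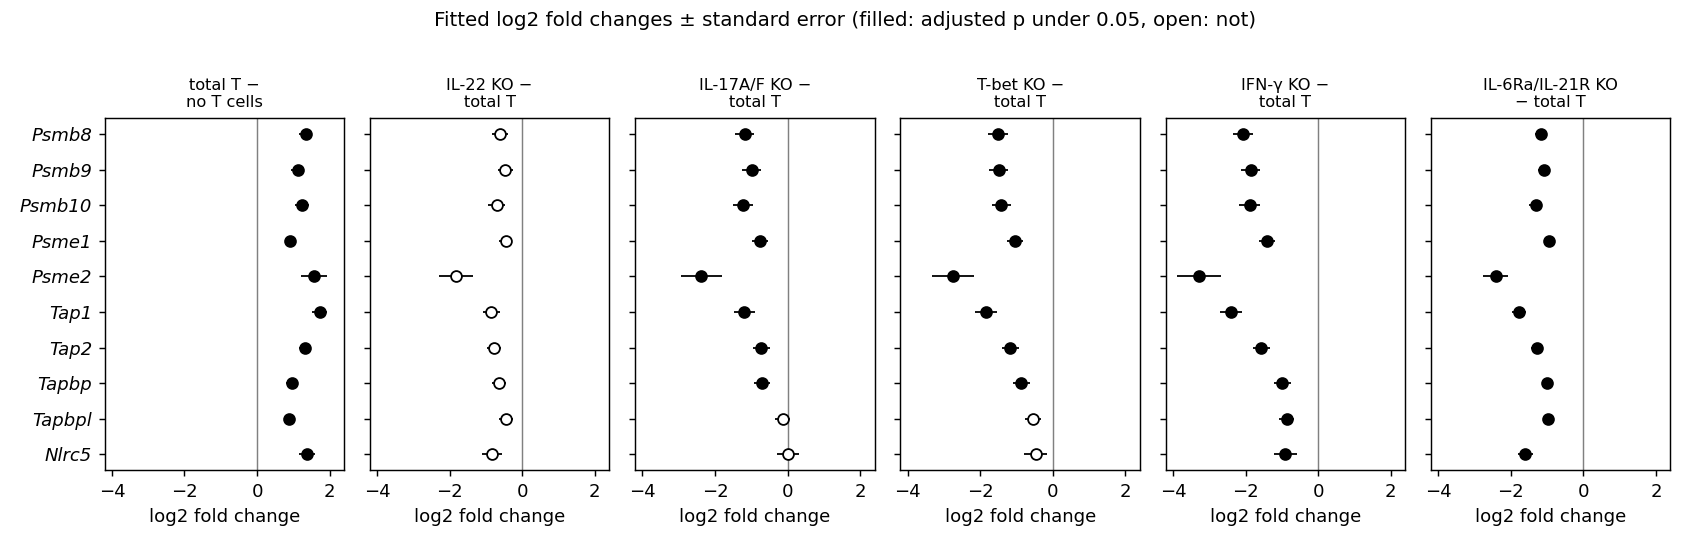
Log2 fold change ± standard error of each gene in the main comparisons, with filled points for an adjusted p under 0.05. The members lie on the positive side for total T cells against no T cells and on the negative side for each knockout group against total T cells except Nlrc5 in the IL-17AF ko group, which is at 0.00.

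The Tbet ko, IFNg ko and IL-17AF ko groups have only set C libraries, so in each of the comparisons that follow the group cannot be told apart from the library set. These contrasts also share their control libraries, total T cells or no T cells, with those above. With the library set as a term, which rests on the single set C library of another group (IL6Ra ko/IL21R ko M4), no member was called in any of the 3 against total T cells, where 0.0474% (Tbet ko), 0.379% (IFNg ko) and 0.0237% (IL-17AF ko) of all genes were. Tap1 was at -0.74 ± 0.36, -1.31 ± 0.36 and -0.10 ± 0.37 in that fit. Fibroblast markers summed to 2217 to 3607 CPM in the 3 groups, against 244 to 400 CPM with total T cells and 428 to 1461 CPM without T cells. Border macrophage markers summed to 8104 to 12724 CPM in them. Monocyte markers summed to 278 to 341 CPM with Tbet ko, 228 to 234 CPM with IFNg ko and 315 to 357 CPM with IL-17AF ko T cells, below all libraries with total T cells and without T cells. The part of these markers in the results was not tested.

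With IFNg ko T cells 8 members had their lowest mean of the 7 groups. All 10 members were lower than with total T cells, against 19.5% of all genes, with a median of -1.71. Tap1 had 141 and 131 CPM, under all libraries of both comparison groups, and differed from total T cells by -2.41 ± 0.31 (q = 1.21e-05). Psmb8 had 109 and 146 CPM and differed by -2.07 ± 0.28, and Psme2 had 24.3 and 34.1 CPM and differed by -3.28 ± 0.60. Tapbp, at 505 and 523 CPM, differed by -0.98 ± 0.23. Nlrc5, at 43.3 and 31.5 CPM, overlapped total T cells and differed by -0.90 ± 0.32 (q = 0.0284).

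Against mice without T cells 2 members were lower with IFNg ko T cells, where 6.84% of all genes were called lower. They were Psmb9 (64.7 and 83.4 CPM, -0.73 ± 0.25, q = 0.0497) and Psme2 (-1.70 ± 0.54, q = 0.0393). Both calls are near the threshold, and leaving out any 1 library left at most 1 of them. In all, 6 members had an unadjusted p under 0.05. Psmb8 was at -0.73 ± 0.25 (q = 0.0562) and Tap1 at -0.68 ± 0.28 (q = 0.101), while Tapbp was at -0.03, Tapbpl at 0.02 and Nlrc5 at 0.48. With the library set as a term no gene was called, and the estimates of 7 members changed from negative to positive. Psmb9 was then at 0.30 ± 0.33, Psmb8 at 0.28 ± 0.34, Tap1 at 0.39 ± 0.37 and Psme2 at -0.01 ± 0.49.

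The Tbet ko group was likewise below total T cells. In all, 8 members were lower than with total T cells (15.1% of all genes called lower), and Tapbpl (-0.54 ± 0.21, q = 0.0518) and Nlrc5 (-0.48 ± 0.31, q = 0.255) did not pass the test. Tap1 had 217 and 188 CPM (-1.83 ± 0.30, q = 0.000176), 1 value within and 1 just under the 196 to 276 CPM without T cells. Psmb8 had 196 and 181 CPM (-1.51 ± 0.27), Psmb9 101 and 88.9 CPM (-1.50 ± 0.26) and Psme2 43.0 and 41.3 CPM (-2.76 ± 0.58). No member was called against mice without T cells (edgeR, 7.21% of all genes; 2 members, Psme2 and Nlrc5, with an unadjusted p under 0.05; 1 by DESeq2). Nlrc5, at 55.8 and 44.6 CPM, lay above all libraries without T cells (0.91 ± 0.28, q = 0.0533). When the fit had the library set as a term, the estimates of 6 members against mice without T cells changed from negative to positive, with Psme2 at 0.52 ± 0.50 and Tap1 at 0.96 ± 0.37, and none was called. Tbet ko against IFNg ko T cells called no gene of the 12661, with 0 members at an unadjusted p under 0.05, and DESeq2 called 0 members. The estimates for the members ran from 0.12 ± 0.26 (Tapbp) to 0.57 ± 0.32 (Tap1), with n = 2 in each group.

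With IL-17AF ko T cells the induced catalytic subunits were lower than with total T cells, and Nlrc5 was not. In all, 8 members were lower than with total T cells (12.5% of all genes called lower), among them Psmb10 (123 and 172 CPM, -1.23 ± 0.27), Psmb8 (202 and 272 CPM, -1.18 ± 0.26), Tap1 (273 and 357 CPM, -1.20 ± 0.29) and Psme2 (46.7 and 63.3 CPM, -2.37 ± 0.56). Nlrc5, at 73.5 and 66.7 CPM, was at 0.00 ± 0.30 from total T cells, and Tapbpl, at 56.9 and 74.1 CPM, at -0.14 ± 0.20. Without the library F1 of this group no member was called. Relative to mice without T cells 2 members were higher (3.69% of all genes called higher), Nlrc5 (1.39 ± 0.28, q = 0.00782) and Tapbpl (0.75 ± 0.19, q = 0.0266). The other 8 did not pass that test, with Psmb10 at 0.01 ± 0.25, Psmb8 at 0.17 ± 0.24, Tap2 at 0.59 ± 0.21 (q = 0.0964) and Tap1 at 0.53 ± 0.26 (q = 0.232). Leaving out either library of the group left neither Nlrc5 nor Tapbpl called.

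The IL-17AF ko, Tbet ko and IFNg ko libraries were all female and of set C. They were compared directly in the fit of all 27 libraries, which shares the spread of the other sets. Against the mean of the Tbet ko and IFNg ko groups no member was called (edgeR, 0.0079% of all genes; 7 members with an unadjusted p under 0.05; 0 by DESeq2). Tap1 was at 0.92 ± 0.27 (q = 0.93), Nlrc5 at 0.70 ± 0.30 and Psmb9 at 0.68 ± 0.24. The ranges of 8 members lay above those of the 4 other libraries, as was so for 9.49% of all genes.

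The other genes of the pathway in these 3 groups were compared with total T cells. All 3 constitutive catalytic subunits and all 11 other barrel subunits were lower in each, and the 11 had medians of -1.27 with IFNg ko, -1.08 with Tbet ko and -1.01 with IL-17AF ko T cells. Of the 13 class I assembly genes 8 were lower with IFNg ko, 4 with Tbet ko and 2 with IL-17AF ko T cells. H2-K1 was at -1.36 ± 0.21 with IFNg ko and -0.80 ± 0.21 with Tbet ko T cells, both lower, and at -0.29 ± 0.20 (q = 0.298) with IL-17AF ko T cells. Of the 17 regulators 4, 2 and 1 were lower and 2, 1 and 1 higher, in the same order of groups. Of all genes 19.5%, 15.1% and 12.5% were called lower and 17.4%, 14.9% and 12.6% higher. Jak2 was at -0.71 ± 0.34 (q = 0.102) with IFNg ko T cells, and was lower with Tbet ko (-1.02 ± 0.34) and IL-17AF ko T cells (-0.96 ± 0.34). Jak1, the kinase of the Ifngr1 receptor chain, was higher in all 3, at 0.45, 0.51 and 0.50. With IL22 ko T cells no gene of these lists was called (edgeR), where 0.0869% of all genes were. At an unadjusted p under 0.05 were 1 of 3, 6 of 11, 2 of 7, 2 of 13 and 3 of 17.

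The ratios of induced to constitutive subunits in the groups of 2 are values only. Psmb8 to Psmb5 was 3.10 and 3.01 with Tbet ko, 2.35 and 2.74 with IFNg ko and 3.30 and 3.47 with IL-17AF ko T cells, on the log2 scale. Psmb9 to Psmb6 was 0.56 and 0.22, -0.05 and 0.36, and 0.85 and 0.95, and Psmb10 to Psmb7 was 0.81 and 0.65, 0.21 and 0.35, and 0.71 and 0.99. The 2 IFNg ko libraries had the lowest Psmb8 to Psmb5 and Psmb10 to Psmb7 ratios of these 6 libraries.

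The order of the 7 groups was alike for most members. Total T cells had the highest mean for all 10, and its range overlapped that of the next group in each. For Psmb8, Psmb9, Psmb10 and Psme1 the IL22 ko group came second and its range lay apart from the third. The IFNg ko group had the lowest mean for Psmb8, Psmb9, Psmb10, Psme1, Psme2, Tap1, Tap2 and Tapbp. The set C library of the IL6Ra ko/IL21R ko group, M4, lay under both IFNg ko libraries for Tap1, Psme1 and Tapbp. It lay between them for Psmb8, Psmb9 and Psmb10, and above both for Psme2 and Tap2. For Tapbp the lowest means were close, at 514 CPM with IFNg ko T cells, 518 with IL6Ra ko/IL21R ko T cells and 529 without T cells. For Psmb8, as an example, the means ± SD were 534 ± 177 CPM with total T cells (n = 5), 350 ± 41.8 with IL22 ko (n = 3), 237 ± 49.4 with IL-17AF ko (n = 2) and 236 ± 45.5 with IL6Ra ko/IL21R ko T cells (n = 7). They were 210 ± 19.5 CPM without T cells (n = 6), 188 ± 10.8 with Tbet ko (n = 2) and 127 ± 26.3 with IFNg ko T cells (n = 2). Nlrc5 had another order: 71.5 ± 31.1 CPM with total T cells, 70.1 ± 4.82 with IL-17AF ko, 50.2 ± 7.97 with Tbet ko, 40.2 ± 3.80 with IL22 ko, 37.4 ± 8.33 with IFNg ko, 27.4 ± 2.81 without T cells and 24.0 ± 6.38 with IL6Ra ko/IL21R ko T cells.

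Across the 27 libraries the members followed each other closely, with groups, library sets and depth shared by the points. Spearman's correlation of a member with the mean of the other 9 was highest for Tap1 (0.958), Tap2 (0.927) and Psme1 (0.925), and lowest for Tapbpl (0.737), Psme2 (0.673) and Nlrc5 (0.520). Among the genes outside the set whose levels were most like the mean of the members were Gbp3 (0.976), H2-Q6 (0.949), Samhd1 (0.935) and H2-K1 (0.933). H2-Q6 belongs to a family of near-identical class I genes, so its counts are uncertain.

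Sex made no detectable difference to the set. No member was called between males and females (edgeR, 0.0553% of all genes; 0 members with an unadjusted p under 0.05). The estimates ran from -0.07 (Psmb9) to 0.22 (Psme2), with 95% intervals of -0.31 to 0.30 for Tap1 and -0.30 to 0.25 for Psmb8. The group difference between mice without T cells and the IL6Ra ko/IL21R ko group, the 2 groups with at least 2 libraries of each sex, did not differ between the sexes for any member at the adjusted threshold (0% of all genes; 0 members with an unadjusted p under 0.05).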

How the data were processed

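Bulk RNA of sorted dural macrophages was measured in 27 libraries. Per the labels' protocols, saline perfusion, digestion of the dura and flow sorting preceded unstranded single-end sequencing. Which markers gated the sort, the sources used here do not say. The deposited file holds whole-number counts per gene. Its name calls them normalized, but totals differ between columns and every count from 1 to 20 occurs in all 27, so they were treated as the authors' raw counts. STAR 2.4.0j, featureCounts, DESeq2 1.20.0 and GRCm38 were used, per the submitters' processing notes. The treatment of multi-mapping reads: not given in the sources used here.

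Columns were matched to groups by name. They carry a sex but no replicate number of the samples, so libraries are called F1, M1 and so on within a group. Between libraries of a group, the chi-square per degree of freedom was 8.97 to 138 for 52 pairs, more than sampling noise would give.

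Genes whose normalized counts averaged 10 or more were fitted in 1 edgeR 4.0.16 model (R 4.3.3, TMM scaling) with group and sex as additive terms. The set-by-group and sex-by-group terms were fitted on the libraries concerned. Quasi-likelihood F tests were adjusted by the Benjamini-Hochberg method over all genes of a comparison, with calls at an adjusted p (q) under 0.05. CPM were computed by edgeR from TMM-scaled library totals. Ratios add a pseudocount of 0.5 to both counts and were tested by exact two-sided permutation over libraries. Library sets come from hierarchical clustering of 73 ribosomal protein genes, cut at a given number of 3 sets. Positions and exon lengths are from GENCODE M21. The fitting code was tested on simulated data.

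All members are named. Other genes come from fixed lists of the pathway, of its regulators and of cell markers, and outside genes among the 5 most like the members were taken by Spearman's correlation over 27 libraries with the mean of the members' scaled log2 CPM. Some genes of these lists are not reported here and were left out of their counts and sums. The members and lists were chosen with earlier results of these data known. Alternatives were DESeq2 (1.42.0), DESeq2 size factors, no filter or one of 50, no sex term, the library set as a term, females, single sets or the compared groups alone, summed Psme2 and Psme2b, and each library left out.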

Additional observations from a re-analysis of the deposited data

Results flagged for a closer look

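Among libraries without T cells, Tap1 had 276 CPM in the female library F2, while the other 5 lay between 196 and 220 CPM. The gap to the nearest library was 0.692 of the group's whole range, above Dixon's 95% critical value for 6 libraries. In all, 30 combinations of a member and a group of 4 to 10 libraries were examined and this was the only one so marked, where chance marks about 1 in 20. The value lies below the 415 to 975 CPM with total T cells.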

How the results depend on the processing

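No paired analysis was possible because the columns carry no replicate number of the samples.

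The counts of members called changed as follows, with the share of all genes called in either direction under the same alternative in brackets. The cause was not tested. With total T cells against no T cells 10 were called, and 4 in set B alone (0.742%). Against total T cells, the Tbet ko count of 8 was 0 with the library set as a term (0.0474%) and 5 in the compared groups alone (15.1%). For IFNg ko, 10 became 0 with the set as a term (0.379%). For IL6Ra ko/IL21R ko, 10 became 6 in set B (6.59%). For IL-17AF ko, 8 became 0 with the set as a term (0.0237%) and 0 in the compared groups alone (9.3%). For IL22 ko, 0 became 7 without a filter on low counts (4.84%), 2 at a mean count of at least 50 (1.56%) and 6 with DESeq2 (7.28%).

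Against no T cells, the Tbet ko count of 0 became 2 without a filter (6%), and 1 with DESeq2 size factors (7.25%), a mean of 50 (9.73%), the compared groups alone (8.51%) or DESeq2 (10.6%). For IFNg ko, 2 became 5 without a filter (7.99%) or in the compared groups alone (8.75%), 1 with DESeq2 size factors (13.2%), no sex term (12.8%) or females alone (13.4%), and 0 with the set as a term (0%). For IL6Ra ko/IL21R ko, 0 became 1 without a filter (2.24%). For IL-17AF ko, 2 became 5 without a filter (5.52%) and 0 with the set as a term (0.261%). For IL22 ko, 0 became 5 without a filter (1.98%), 3 with the set as a term (0.584%), 3 in the compared groups alone (0.332%) and 1 with DESeq2 (0.942%). IL-17AF ko against the Tbet ko and IFNg ko mean became 1 without a filter (0.68%). IL22 ko against IL6Ra ko/IL21R ko became 6 without a filter (2.22%), 3 in set B (1.33%) and 1 with DESeq2 (0.51%).

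Leaving out each library in turn left 10 called for total T cells against no T cells, 7 to 9 for Tbet ko, 8 to 10 for IFNg ko, 10 for IL6Ra ko/IL21R ko, 0 to 8 for IL-17AF ko and 0 to 10 for IL22 ko against total T cells. Against no T cells it left 0 to 1 for IFNg ko and 0 to 2 for IL-17AF ko. IL22 ko against IL6Ra ko/IL21R ko had 0 to 1.

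The ratio differences that passed their exact test kept their sign and their call with each library left out, and kept their sign but lost the call in females and in single sets. For total T cells against no T cells, Psmb8 to Psmb5 was 0.62 in females, 0.85 in set A and 0.59 in set B, Psmb9 to Psmb6 was 0.66, 0.79 and 0.56, and Psmb10 to Psmb7 was 0.75, 0.60 and 0.89. For IL6Ra ko/IL21R ko against total T cells they were -0.34, -0.49 and -0.62 in females, and -0.36, -0.50 and -0.53 in set B. Within single sets, and in females of the second comparison, the smallest p that so few libraries allow is over 0.05. In females of the first it is 0.0286 before adjustment.

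Of the single-gene differences that were called, 3 changed sign with the library set as a term. IL-17AF ko against total T cells came to 0.0447 for Psmb9 and 0.0404 for Psme1, and IFNg ko against no T cells came to 0.30 for Psmb9. Estimates that had not been called changed sign too: in all, 7 of 10 members did so for IFNg ko, 6 for Tbet ko and 7 for IL6Ra ko/IL21R ko against no T cells.

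In the groups of 2 libraries the spread comes largely from the other groups, so a lone aberrant library could not be seen there.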
